A study of Mus musculus with 8 samples.

Results

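Interferon-stimulated genes are the genes that cells switch on when type I or type II interferons bind their receptors. They were followed here in whole liver of mice that lack the mitochondrial fusion gene Mfn2 in POMC neurons of the hypothalamus. Of 39 such genes chosen by name, 36 had a probe set annotated with that symbol alone, out of 18193 genes on the arrays. Isg15 (whose probe set carries more than 1 symbol), Oas1g and Ifi44 were not analysed here. Where a gene had several probe sets, its brightest one across the 8 arrays stood for it. Of the 36 genes, 34 passed the filter against dim signals (a mean log2 level of 5.80) and were tested. Oasl2 and Mx1 lay below it and are given as values only. The filter used the mean over all 8 arrays together.

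The study compared livers of 5 POMCMfn2KO mice with those of 3 control mice, which the labels call WT, with 1 array per mouse. All mice were 6 weeks old, of a mixed C57Bl/6J, FVB/N and 129 background, and ate standard chow freely. The labels give no sex, collection time, batch or Cre driver line, and the liver itself was not the target of the deletion. Mfn2 in liver was therefore no check of the labels: it averaged 9.61 ± 0.24 in POMCMfn2KO and 9.88 ± 0.08 in control livers (log2 level, mean ± SD, n = 5 and 3; limma adjusted p = 0.169). All values below are log2 levels made by the authors with RMA, so a difference of 1 is a 2-fold change. Changes are POMCMfn2KO minus control, and limma was run over 11986 genes, with p-values adjusted by Benjamini-Hochberg and called under 0.05. A gene is said to fall only where it passed that test. Of 6 listed hepatocyte genes 5 had a probe set, and their mean lay between 14.91 and 14.98 in POMCMfn2KO and between 14.87 and 14.88 in control livers. Levels this bright leave an array little room to show a change, and of the 5 Cps1 rose (14.49 ± 0.12 in POMCMfn2KO and 14.18 ± 0.01 in control livers, adjusted p = 0.0264). POMCMfn2KO livers 2 and 3 stood apart in pancreatic acinar transcripts: 9 of 11 listed genes had a probe set, and these averaged 10.87 and 11.02 there, against 6.58 to 6.87 in the other POMCMfn2KO livers and 6.54 to 6.56 in control livers. The count of genes that fell, and counts of single arrays where they can be had, are also given without this pair.

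Type I interferon signals through the kinases JAK1 and TYK2 to a complex that holds STAT2 and IRF9 and binds the interferon-stimulated response element (ISRE). Type II interferon signals through JAK1 and JAK2, and its target genes carry the gamma-activated site (GAS). IRF1 and IRF7 are induced by interferon and carry the response further. The products include RNA-binding proteins that block viral translation, enzymes that activate an RNA-degrading nuclease, GTPases that attack pathogen-containing vacuoles, sensors of foreign RNA and DNA, and the machinery that loads peptides on MHC class I. Healthy liver keeps many of these genes on at a basal level, in hepatocytes and in its resident macrophages, the Kupffer cells.

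The elements through which these genes are known to respond can be read in their promoters. The 8 stretches below, 60 bases each, lie upstream of the annotated gene starts in mouse build GRCm38.p6 and come from the RefSeq promoter table. They are shown because they belong to genes whose levels carry the results: Ifit1 and Irf1, which fell, Oas1a, Bst2 and Gbp3, which were low in the same POMCMfn2KO livers, the neighbouring relatives Igtp and Irgm2, and the immunoproteasome gene Psmb8. Capitals mark matches to the ISRE core, searched as GAAA, any 2 bases and GAAA on either strand, or to the GAS motif TTCNNNGAA, and overlapping matches run together. Irf7, low in the same POMCMfn2KO livers as Oas1a, Bst2 and Gbp3, is not shown. Neither motif was found within 250 bases upstream of its start.
Ifit1, chr19:34640769-34640828, plus strand: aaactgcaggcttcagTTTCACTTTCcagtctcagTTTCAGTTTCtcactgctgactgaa
Irf1, chr11:53769898-53769957, plus strand: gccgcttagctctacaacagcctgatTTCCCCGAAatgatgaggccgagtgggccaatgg
Oas1a, chr5:120907526-120907585, minus strand: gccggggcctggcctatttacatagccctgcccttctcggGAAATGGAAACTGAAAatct
Bst2, chr8:71537568-71537627, minus strand: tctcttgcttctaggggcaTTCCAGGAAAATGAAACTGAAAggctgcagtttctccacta
Gbp3, chr3:142559977-142560036, plus strand: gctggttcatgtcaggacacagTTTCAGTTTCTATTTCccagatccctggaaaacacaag
Igtp, chr11:58199491-58199550, plus strand: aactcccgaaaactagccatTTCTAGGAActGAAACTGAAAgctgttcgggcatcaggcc
Irgm2, chr11:58214882-58214941, plus strand: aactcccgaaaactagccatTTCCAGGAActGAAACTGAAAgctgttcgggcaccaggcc
Psmb8, chr17:34198072-34198131, plus strand: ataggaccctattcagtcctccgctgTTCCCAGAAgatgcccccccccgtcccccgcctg

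Ifit1 carries a pair of separate ISRE cores, Irf1 and Psmb8 a GAS match alone, and Bst2, Igtp and Irgm2 both motifs side by side. The Igtp and Irgm2 stretches are identical at 58 of 60 bases. Of 27 interferon-stimulated genes with a promoter in the table, 15 held the ISRE core within 250 bases upstream of a start, against 3.46% of all 27025 genes with a promoter. The GAS motif was found in 7 of the 27, against 8.13% of all genes. Since the genes were chosen as interferon targets, these shares describe the list. Of the 6 genes with a promoter that fell in POMCMfn2KO liver, 1 (Ifit1) held the ISRE core and 1 (Irf1) the GAS motif. A match is a run of letters and says nothing of whether a factor was bound.

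Of the 34 interferon-stimulated genes, 7 fell in POMCMfn2KO liver and none rose. Those that fell were Irf1, Ifit1, Oasl1, Mx2, Ifih1, Xaf1 and Tap1, while 10.9% of all genes tested fell. No interferon-stimulated gene rose in limma (1, Iigp1, at an unadjusted p under 0.05), while 7.02% of all genes tested rose. The median difference was -0.29 over the 34 genes and -0.02 over all genes tested. The difference was below 0 in 26 of the 34 (76.5%), against 54.2% of all genes. In 11 of the 34 every POMCMfn2KO liver lay below every control, as in 16.5% of all genes tested, and in none did every POMCMfn2KO liver lie above, as in 12.0% of all genes. Without POMCMfn2KO 2 and 3 these counts were 16 (18.8% of all genes) and none (14.1% of all genes). Leaving out control 1 or control 3 left 2 genes that fell, and leaving out control 2 left 1. Leaving out POMCMfn2KO 2 left 3, and leaving out POMCMfn2KO 2 and 3 together left Irf1 alone. The share of all genes that fell in these fits is not given here, so these counts cannot be weighed against it. Whole liver mixes cell types, so fewer cells of a type and less RNA per cell cannot be told apart in any of these values.

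**Figure D1:**
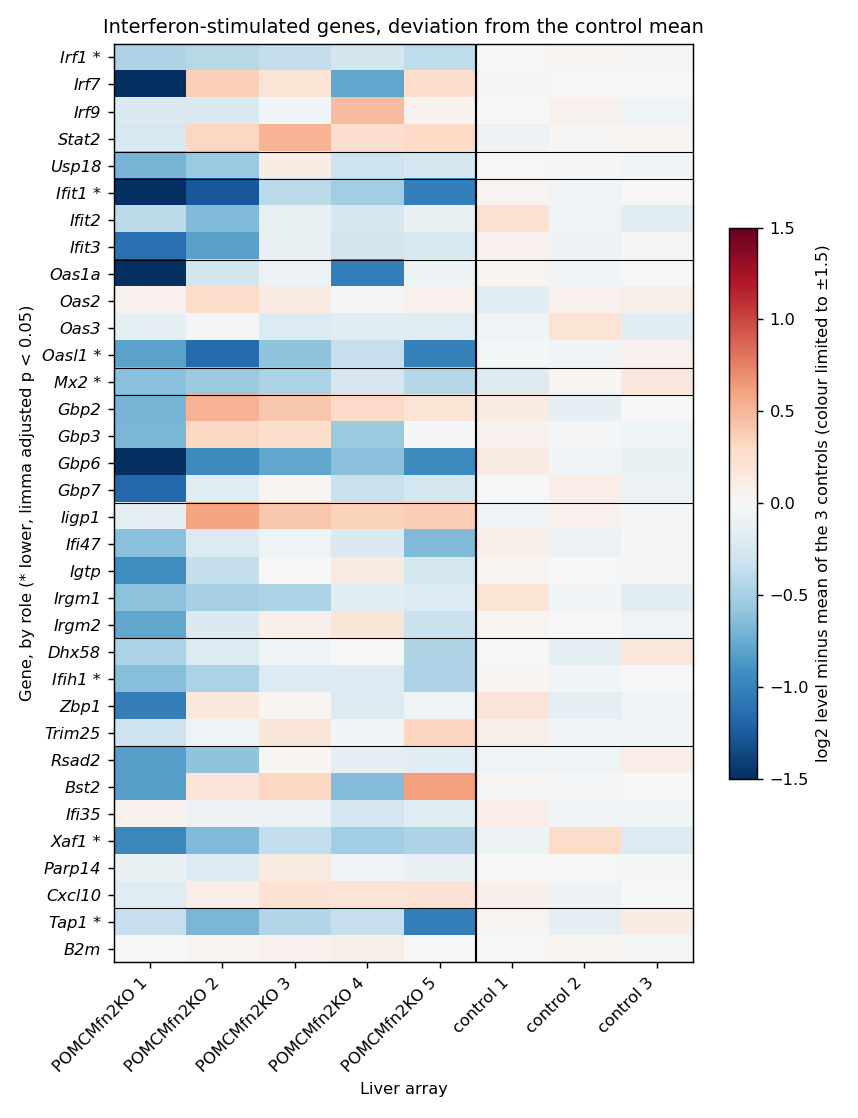
The heat map shows the log2 level minus the mean of the 3 controls for the 34 interferon-stimulated genes tested (down, by role, set off by lines) in each of the 8 arrays (across, POMCMfn2KO livers before controls), with colours limited to ±1.5. Blue is lower than the control mean. POMCMfn2KO 1 is blue in nearly the whole column, with a mean deviation of -0.69, and the control columns stay close to 0.

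Irf1, a transcription factor that drives MHC class I and many interferon-induced genes, had log2 levels of 8.87, 8.91, 8.97, 9.05 and 8.95 in POMCMfn2KO livers 1 to 5, against 9.32, 9.36 and 9.31 in control livers. The groups did not overlap, and both were tight. It fell by 0.38 (SE 0.06, 1.30-fold, adjusted p = 0.0043) and was the only one of the 7 that passed in all 17 alternative settings, with adjusted p up to 0.0406.

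Ifit1, which binds viral RNA lacking the host cap methylation, had the largest fall among the 7. Its levels were 7.02, 7.35, 8.23, 8.10 and 7.60 in POMCMfn2KO livers, against 8.66, 8.57 and 8.63 in control livers. It fell by 0.96 (SE 0.25, 1.94-fold, adjusted p = 0.0287). POMCMfn2KO 1 and 2 were lowest and POMCMfn2KO 3 and 4 came nearest to the controls. Its neighbours in the family, which bind RNA with it, did not pass. Ifit3 had 7.30, 7.60, 8.31, 8.15 and 8.18 in POMCMfn2KO livers and 8.49, 8.34 and 8.44 in control livers (-0.52, adjusted p = 0.127), all below the controls. Ifit2 overlapped (-0.30, adjusted p = 0.173).

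Oasl1, an OAS-like protein that in mouse restrains translation of Irf7 mRNA, had levels of 7.54, 7.19, 7.74, 8.0 and 7.33 in POMCMfn2KO livers, against 8.31, 8.29 and 8.41 in control livers. It fell by 0.78 (SE 0.16, 1.71-fold, adjusted p = 0.0130), and here POMCMfn2KO 2 and 5, not 1, were lowest. Mx2, a dynamin-like antiviral GTPase, had 6.72, 6.79, 6.88, 7.10 and 6.92 in POMCMfn2KO livers, against 7.16, 7.38 and 7.52 in control livers. The groups lay side by side without overlap, and Mx2 fell by 0.47 (adjusted p = 0.0157). Its relative Mx1 was dim, at 4.82 ± 0.14 in POMCMfn2KO and 5.28 ± 0.16 in control livers.

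Ifih1, the gene of the long double-stranded RNA sensor MDA5, had levels of 9.14, 9.30, 9.57, 9.58 and 9.32 in POMCMfn2KO livers, against 9.81, 9.74 and 9.79 in control livers. It fell by 0.39 (1.31-fold, adjusted p = 0.0300). Xaf1, an interferon-induced antagonist of the apoptosis inhibitor XIAP, had 6.96, 7.27, 7.56, 7.41 and 7.47 in POMCMfn2KO livers, against 7.85, 8.21 and 7.73 in control livers, a fall of 0.60 (adjusted p = 0.0245). In both genes POMCMfn2KO 1 was lowest and POMCMfn2KO 2 next. Tap1, a subunit of the transporter that brings peptides to MHC class I, went another way. It had 8.10, 7.76, 8.01, 8.10 and 7.42 in POMCMfn2KO livers, against 8.49, 8.30 and 8.56 in control livers, fell by 0.57 (adjusted p = 0.0336) and was lowest in POMCMfn2KO 5.

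Most of these calls did not hold when 1 array was left out. Ifit1, Ifih1, Oasl1 and Tap1 lost theirs without any 1 of the 3 controls, Mx2 without control 2 or 3, and Xaf1 without control 1 or 2. Ifit1, Ifih1, Xaf1 and Tap1 were also lost without POMCMfn2KO 2, Ifit1 and Ifih1 without POMCMfn2KO 5, and Tap1 without POMCMfn2KO 3. Their direction held in each of these fits, with adjusted p up to 0.128.

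**Figure D2:**
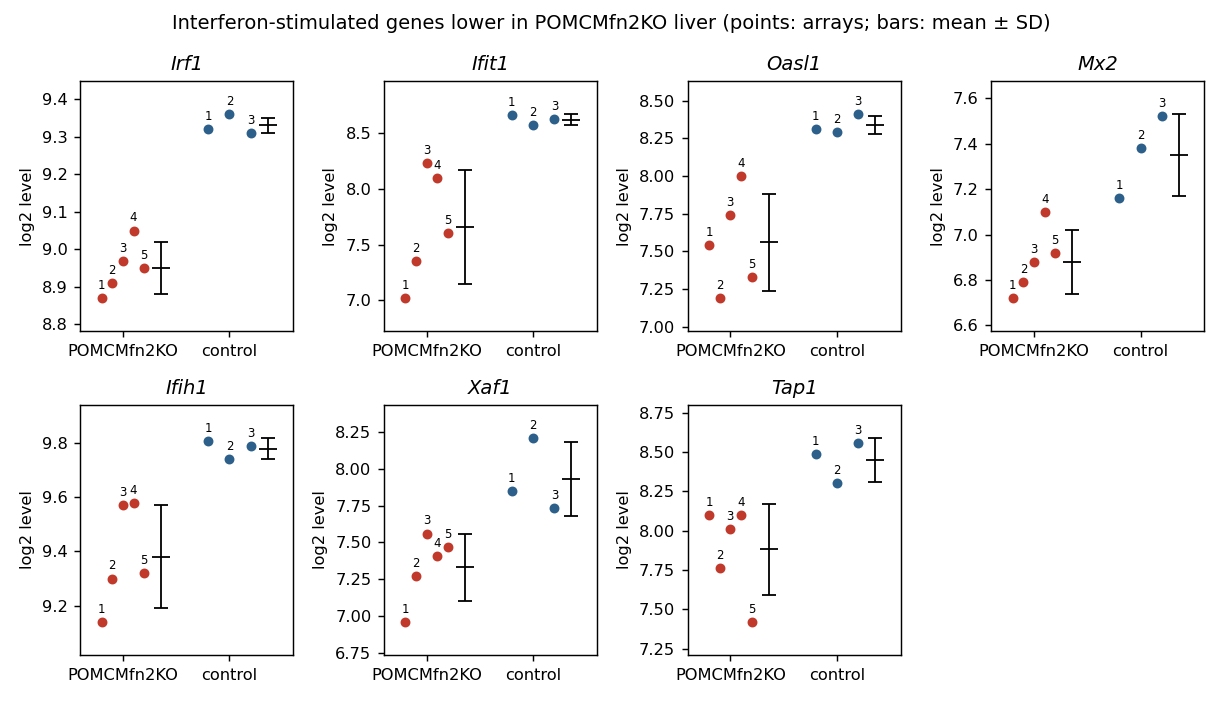
The strip plots give the log2 level (vertical axis, a scale of its own per gene) of the 7 interferon-stimulated genes that fell, with a point per array numbered by replicate, POMCMfn2KO left of control, and the mean ± SD beside the points. Points of the groups do not overlap in any panel, and in Ifit1 the POMCMfn2KO points spread over 1.21 against 0.10 in controls.

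Across the roles, transcription factors differed from each other. Besides Irf1, Irf7 (-0.33, adjusted p = 0.639), Stat2 (0.23, adjusted p = 0.300) and Irf9 (0.01, adjusted p = 0.973) did not pass. Stat2, a subunit of the ISRE-binding complex, had 6.56, 7.11, 7.32, 7.05 and 7.10 in POMCMfn2KO livers, against 6.72, 6.82 and 6.84 in control livers. POMCMfn2KO 1 lay below and the other 4 above all controls. Usp18, which removes ISG15 from proteins and blocks the type I receptor, averaged 9.18 ± 0.31 in POMCMfn2KO and 9.52 ± 0.03 in control livers (-0.34, adjusted p = 0.171). In the OAS family, whose enzymes make the signal for RNase L, Oas2 (0.11) and Oas3 (-0.14) overlapped between the groups, and the dim Oasl2 was at 4.88 ± 0.34 in POMCMfn2KO and 4.83 ± 0.16 in control livers.

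With all arrays no guanylate binding protein or immunity related GTPase passed the test, although 7 of the 9 had differences below 0. These GTPases coat and break the vacuoles of intracellular pathogens. Gbp6 had the largest difference of all 34 genes, -1.18 (2.27-fold, adjusted p = 0.0698), with 6.09, 7.80, 7.96, 8.11 and 7.80 in POMCMfn2KO livers, against 8.86, 8.70 and 8.64 in control livers. All 5 POMCMfn2KO livers lay below the controls, and POMCMfn2KO 1 stood far below the other 4. Without POMCMfn2KO 1 the difference was -0.82 and passed (adjusted p = 0.00119). It also passed with the mean of all probe sets (-1.28, adjusted p = 0.0413), with array weights and without POMCMfn2KO 4, while its adjusted p reached 0.197 without control 1. A second probe set of Gbp6 gave -1.37. Gbp2 (0.15) and Gbp7 (-0.39) did not pass.

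Among the immunity related GTPases, Irgm1, a regulator that guards host membranes from the others, came nearest to the threshold (-0.39, adjusted p = 0.0559), with all POMCMfn2KO livers below the controls. It passed with array weights, with the replicate block (-0.53, adjusted p = 0.0347) and without POMCMfn2KO 4 or 5, and reached an adjusted p of 0.226 without POMCMfn2KO 2 and 3. Ifi47 (-0.36), Igtp (-0.29) and Irgm2 (-0.21) did not pass, except Ifi47 with array weights (adjusted p = 0.0430). Igtp and Irgm2, whose promoter stretches are nearly identical, were both lowest in POMCMfn2KO 1 and highest in POMCMfn2KO 4. Igtp had 9.37, 9.94, 10.29, 10.43 and 10.04 in POMCMfn2KO livers and 10.34, 10.29 and 10.28 in control livers. Irgm2 had 8.68, 9.24, 9.54, 9.64 and 9.14 in POMCMfn2KO livers and 9.50, 9.47 and 9.41 in control livers. Iigp1, a GTPase that assembles on parasite vacuoles, ran against the rest, with 12.80, 13.52, 13.33, 13.28 and 13.30 in POMCMfn2KO livers and 12.88, 13.00 and 12.91 in control livers (0.31, adjusted p = 0.150). Here 4 POMCMfn2KO livers lay above all controls and POMCMfn2KO 1 below them. Probe sets for these families can bind transcripts of close relatives, so a value may include those of a neighbouring gene.

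The other sensors and induced genes did not pass. Dhx58, the RNA helicase LGP2, differed by -0.25 and Trim25, a ubiquitin ligase of the RIG-I pathway, by 0.02. Rsad2, the gene of viperin, averaged 9.28 ± 0.36 in POMCMfn2KO and 9.63 ± 0.09 in control livers (-0.34, adjusted p = 0.221), and 2 other probe sets of Rsad2 gave -0.10 and 0.08. Parp14 (-0.06), an ADP-ribosyltransferase, Ifi35 (-0.11) and the chemokine gene Cxcl10 (0.11) overlapped between the groups. B2m, the light chain of MHC class I, was the steadiest of the 34, at 14.50 ± 0.04 in POMCMfn2KO and 14.46 ± 0.02 in control livers, at a level as bright as those of the hepatocyte genes.

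The 5 POMCMfn2KO livers were not alike. POMCMfn2KO 1 held the lowest POMCMfn2KO level in 26 of the 34 interferon-stimulated genes (76.5%), while it did so in 27.1% of all genes tested. In 25 of the 34 it was the lowest of all 8 arrays, as in 2403 of all 11986 genes. Without POMCMfn2KO 2 and 3, it was the lowest of the remaining 3 POMCMfn2KO livers in 28 of the 34 (82.4%, against 35.5% of all genes). It lay below every control in 30 of the 34 (88.2%), against 41.1% of all genes. The mean deviation of the 34 genes from the control mean was -0.69, -0.25, -0.05, -0.19 and -0.20 in POMCMfn2KO livers 1 to 5, and within 0.03 of 0 in every control. The median deviation of all genes tested lay between -0.02 and -0.01 in the 5 POMCMfn2KO livers. These counts describe single arrays, with genes that share regulators, and carry no test.

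**Figure D3:**
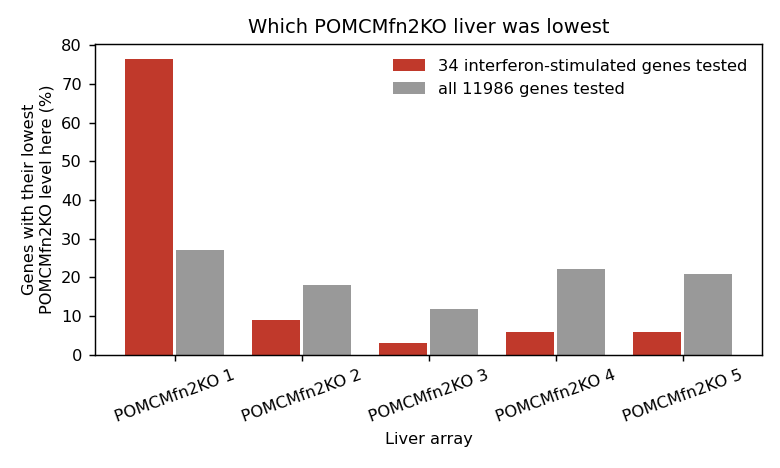
Bars give the percentage of genes whose lowest POMCMfn2KO level fell in each of the 5 POMCMfn2KO livers, for the 34 interferon-stimulated genes tested and for all 11986 genes tested. POMCMfn2KO 1 takes 76.5% of the interferon-stimulated genes and 27.1% of all genes, and POMCMfn2KO 3 takes 2.94% and 11.9%.

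Without POMCMfn2KO 1, 8 of the 34 genes fell and 3 rose, while 13.7% of all genes tested fell and 9.33% rose. With every array 10.9% of all genes tested fell and 7.02% rose, so calls of both kinds also grew over all genes. All 7 that fell with every array were among the 8, together with Gbp6. The 3 that rose were Iigp1 (0.43, adjusted p = 0.00695), Gbp2 (0.36, adjusted p = 0.0278) and Stat2 (0.35, adjusted p = 0.0160). In each, POMCMfn2KO 1 lay below all controls and the other 4 POMCMfn2KO livers above them, so leaving it out had to raise the difference. The median difference over the 34 genes was -0.17 without POMCMfn2KO 1. Irf7 differed by 0.01 and Bst2 by 0.12 in that fit, against -0.33 and -0.07 with all arrays.

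POMCMfn2KO 1 was 1 of the 2 lowest POMCMfn2KO livers in 30 of the 34 genes, and in 5323 of all 11986 genes tested. The other liver of that pair divided the 30. It was POMCMfn2KO 2 in 15 of the 30 (against 24.6% of the 5323 genes in which POMCMfn2KO 1 was in the lowest pair), among them Ifit1, Ifit2, Ifit3, Rsad2, Usp18, Mx2, Ifih1, Irf1 and Xaf1. It was POMCMfn2KO 4 in 9 of the 30 (against 36.6%), and POMCMfn2KO 5 in 6 of the 30 (against 19.7%), which included Gbp2, Gbp6, Ifi47 and Irgm2.

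In Irf7, Oas1a, Bst2 and Gbp3 the levels of POMCMfn2KO 1 and 4 were set apart from the other 3 POMCMfn2KO livers by gaps of 0.99, 0.76, 0.83 and 0.53. These 4 genes were singled out after their values were seen. POMCMfn2KO 1 and 4 were the lowest pair in 16.2% of all genes tested, and how common gaps of this size are was not counted. Irf7, the amplifier of the type I response, had 7.26, 9.29, 9.14, 8.15 and 9.19 in POMCMfn2KO livers, against 8.95, 8.92 and 8.93 in control livers. POMCMfn2KO 2, 3 and 5 lay above the controls, POMCMfn2KO 4 below them and POMCMfn2KO 1 at 3.19-fold below the control mean.

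Oas1a, an oligoadenylate synthetase, had 7.68, 9.06, 9.24, 8.30 and 9.25 in POMCMfn2KO livers, against 9.37, 9.29 and 9.32 in control livers. POMCMfn2KO 1 was 3.13-fold and POMCMfn2KO 4 2.04-fold below the control mean, and the other 3 lay just below the controls. Bst2, the gene of tetherin, which holds budding virus on the cell surface, had 9.95, 10.97, 11.09, 10.13 and 11.39 in POMCMfn2KO livers, against 10.80, 10.76 and 10.77 in control livers. Gbp3 had 7.26, 8.26, 8.21, 7.39 and 7.92 in POMCMfn2KO livers, against 8.02, 7.93 and 7.89 in control livers. In Bst2, POMCMfn2KO 1 and 4 were the only arrays below the controls and the other 3 were the highest of the 8.

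Kupffer cell and macrophage markers varied among the same livers. All 8 markers listed had a probe set above the filter, and their mean log2 level was 8.78, 8.88, 9.01, 8.58 and 9.32 in POMCMfn2KO livers 1 to 5, against 9.43, 9.11 and 9.20 in control livers. By this mean POMCMfn2KO 4 and 1 were lowest and POMCMfn2KO 5 highest among the knockouts, but the markers differed in order. Clec4f had 10.26, 10.12, 10.40, 9.82 and 10.70 in POMCMfn2KO livers and 10.31, 10.06 and 10.10 in control livers. Vsig4 had 10.23, 10.04, 10.13, 9.99 and 10.52 in POMCMfn2KO livers and 10.81, 10.39 and 10.43 in control livers. In both, and in Timd4, POMCMfn2KO 2 and 4 were the lowest pair, as in 9.71% of all genes tested. In Cd5l, Adgre1, Cd68 and Marco the lowest pair was POMCMfn2KO 1 and 4, as in 16.2% of all genes tested. In Csf1r POMCMfn2KO 4 was lowest, with POMCMfn2KO 1 and 3 next at 11.15. Marco, a scavenger receptor of these cells, had 6.39, 6.99, 7.31, 6.21 and 7.38 in POMCMfn2KO livers and 7.30, 7.02 and 7.22 in control livers. Of the 8 markers, Timd4 alone fell (6.09 ± 0.15 in POMCMfn2KO and 6.78 ± 0.19 in control livers, adjusted p = 0.00405). The part of these cells in the pattern of Irf7, Oas1a, Bst2 and Gbp3 was not tested.

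In Zbp1, a sensor of Z-form nucleic acids, and the guanylate binding proteins Gbp2, Gbp6 and Gbp7, POMCMfn2KO 1 was lowest by a wide gap. This gap to the nearest liver made up 0.741 of the whole range in Gbp2 and 0.844 in Gbp6, above the critical value of 0.71. In Zbp1 (0.697) and Gbp7 (0.701) it lay just below that value, and it was nearly as large a share in Cxcl10 (0.676), Iigp1 (0.662) and Stat2 (0.649). Chance alone sets an array apart in about 1 of 20 groups, and 36 interferon-stimulated genes were checked. The share over all genes was not counted. Zbp1 had 6.63, 7.82, 7.69, 7.46 and 7.60 in POMCMfn2KO livers and 7.85, 7.52 and 7.61 in control livers. Gbp7 had 7.49, 8.49, 8.70, 8.34 and 8.41 in POMCMfn2KO livers and 8.67, 8.77 and 8.58 in control livers. Gbp2 had 5.58, 6.80, 6.68, 6.57 and 6.49 in POMCMfn2KO livers and 6.40, 6.14 and 6.29 in control livers. In Gbp2 the other 4 POMCMfn2KO livers lay above all controls, and POMCMfn2KO 1 was below the level of the dim filter.

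**Figure D4:**
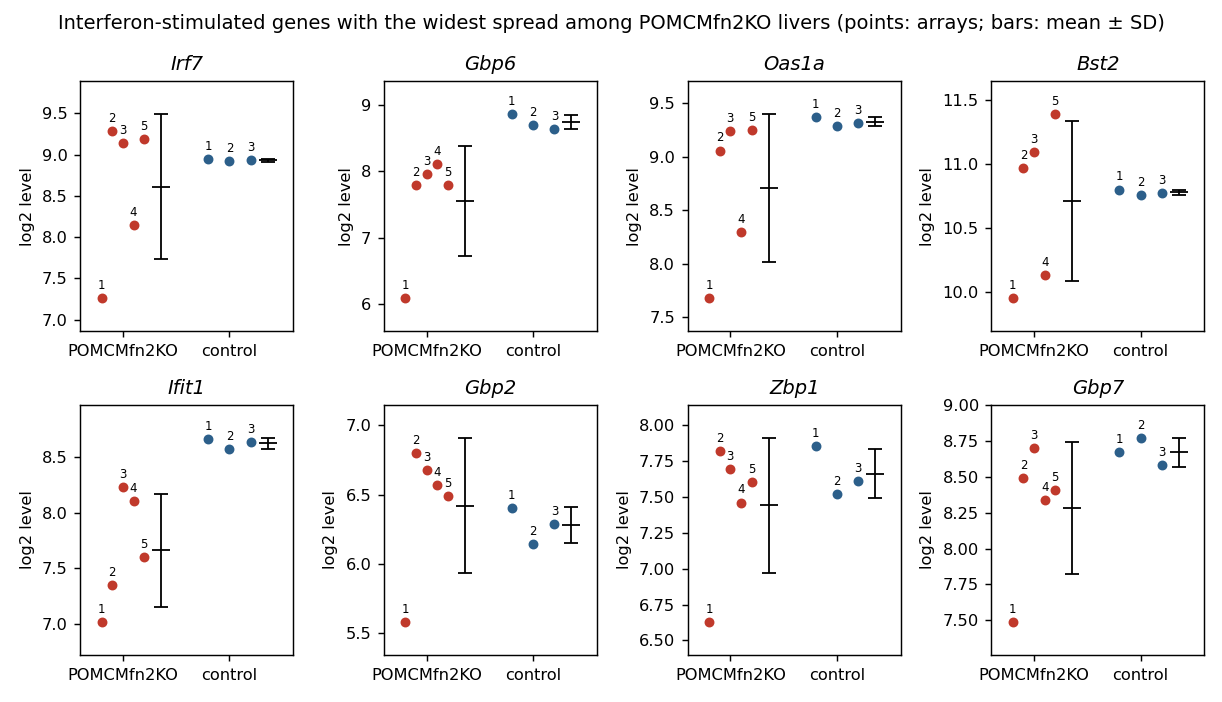
The strip plots give the log2 level (vertical axis, a scale of its own per gene) of the 8 interferon-stimulated genes with the largest SD over the POMCMfn2KO livers, with a point per array numbered by replicate, POMCMfn2KO left of control, and the mean ± SD beside the points. POMCMfn2KO 1 is lowest in all 8 panels, POMCMfn2KO 4 joins it in Irf7, Oas1a and Bst2, and the controls stay within 0.33 of each other.

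The spread was larger in POMCMfn2KO than in control livers for most of these genes, but no single gene passed the test of it. The median SD of the 34 genes was 0.28 over the 5 POMCMfn2KO livers and 0.08 over the 3 controls. Over all genes tested the median SD was 0.13 in POMCMfn2KO and 0.07 in control livers. The SD was larger in POMCMfn2KO for 30 of the 34 (88.2%), as for 80.0% of all genes. The spread was tested with limma on the absolute deviations from the group mean. None of the 34 passed (lowest adjusted p = 0.201, for Bst2), as against 0.125% of all genes tested. On simulated data with as few arrays the adjusted test missed nearly all differences in spread. These were of a single, large size, and the unchanged genes were all given the same SD, unlike real genes. A gene that did not pass may still differ. At an unadjusted p under 0.05, 10 of the 34 had a larger spread in POMCMfn2KO, as did 11.5% of all genes, and on simulated data this unadjusted p called unchanged genes too often. Those 10 were Bst2, Oas1a, Irf7, Ifit3, Gbp3, Ifi47, Rsad2, Ifit1, Ifih1 and Oasl1. In the adjusted test Bst2 passed without POMCMfn2KO 2 or 3, and Bst2, Gbp3 and Ifit1 passed without POMCMfn2KO 5.

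Beyond the interferon-stimulated genes, 46 of 53 other listed genes of the pathway had a probe set and 41 were tested. Of these 11 fell and none rose (3 at an unadjusted p under 0.05 in limma, Ifna1, Ptpn2 and Mavs), and the median difference was -0.06. The 11 are counted against the same 10.9% of all genes tested. None of the 5 receptor genes tested passed, nor did the kinases Jak1 and Tyk2. Ifnar1 averaged 7.73 ± 0.13 in POMCMfn2KO and 7.79 ± 0.08 in control livers, Ifngr1 8.73 ± 0.23 and 8.65 ± 0.06, Jak1 9.31 ± 0.09 and 9.17 ± 0.03, and Tyk2 7.47 ± 0.11 and 7.51 ± 0.02, in the same order. Interferon genes themselves were dim or near the filter, with Ifnb1 at 5.04 ± 0.18 in POMCMfn2KO and 5.10 ± 0.05 in control livers, and Ifng at 3.83 ± 0.06 and 3.92 ± 0.11.

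Jak2, the kinase of the interferon gamma receptor and of several cytokine receptors, fell by 0.31 (adjusted p = 0.0474) and lost its call in 10 of 17 alternative settings. Stat3, the mediator of interleukin-6 signals, fell by 0.56 (adjusted p = 0.0062), and Socs3, its feedback inhibitor, by 0.80 (adjusted p = 0.0032). Other probe sets gave -0.51 and -0.14 for Stat3, and -0.87 and -0.21 for Socs3. Among the sensors, Ddx58, the gene of RIG-I, fell by 0.42 (adjusted p = 0.0304; another probe set gave -0.25) and Tlr3, an endosomal receptor of double-stranded RNA, by 0.37 (adjusted p = 0.0306). Together with Ifih1, these encode 3 receptors of double-stranded or viral RNA. The adaptor gene Mavs, through which RIG-I and MDA5 signal, differed by 0.18 and did not pass (adjusted p = 0.0687). Ddx58 and Tlr3 lost their calls without any 1 control, and Ddx58 also without POMCMfn2KO 2 or 5, or where its probe sets were averaged (-0.20, adjusted p = 0.0840). Both lost them without POMCMfn2KO 2 and 3 together.

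The genes that cut and load peptides for MHC class I held 6 of those 11 falls, out of 10 tested in that group. Psmb9, an immunoproteasome subunit, had 8.51, 8.05, 8.22, 8.79 and 8.09 in POMCMfn2KO livers, against 9.51, 9.47 and 9.50 in control livers, and fell by 1.16 (SE 0.16, 2.24-fold, adjusted p = 0.00227). Psmb8, another such subunit, had 8.78, 9.09, 9.08, 9.22 and 9.0 in POMCMfn2KO livers, against 9.80, 9.66 and 9.75 in control livers, and fell by 0.70 (1.63-fold, adjusted p = 0.00227). Neither gene's groups came near to overlapping. Psmb10, the remaining catalytic subunit, fell by 0.39 (adjusted p = 0.0287), Psme1, of the proteasome activator, by 0.46 (adjusted p = 0.0416), Tap2, the partner of Tap1, by 0.37 (adjusted p = 0.0124), and Tapbp, the gene of tapasin, by 0.30 (adjusted p = 0.0200). Another probe set of Tapbp gave -0.13. The heavy chain genes H2-K1 (-0.20, adjusted p = 0.0706) and H2-D1 (-0.15, adjusted p = 0.329), the trimming peptidase gene Erap1 (0.11) and the transactivator gene Nlrc5 (-0.18) did not pass.

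The mean deviation of this group from the control mean was -0.49, -0.36, -0.35, -0.33 and -0.36 in POMCMfn2KO livers 1 to 5. That of the 4 guanylate binding proteins was -1.30, -0.07, -0.02, -0.31 and -0.25, and that of the 3 IFIT genes was -1.03, -0.92, -0.20, -0.35 and -0.46. The difference between these profiles was not tested. Tap1 and Psmb9 are transcribed away from each other on chromosome 17, with 226 bases between their annotated starts. Both were lower in POMCMfn2KO 2 and 5 than in the other POMCMfn2KO livers, as were 14.7% of all genes tested. Psmb8, Psmb9, Stat3 and Socs3 kept their calls when any 1 array was left out. Psmb10, Psme1, Tap2 and Tapbp each lost theirs without control 1 or 3, and Psmb10, Psme1 and Tapbp also without control 2. Without POMCMfn2KO 2, 3 or 5 the call of Psme1 was lost, and without POMCMfn2KO 3 that of Psmb10. Without POMCMfn2KO 2 and 3 together Psmb10, Psme1 and Tap2 lost theirs. Psme1 also lost its call with quantile normalization (adjusted p = 0.0569) and Tapbp with the replicate block (-0.24, adjusted p = 0.0842).

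**Figure D5:**
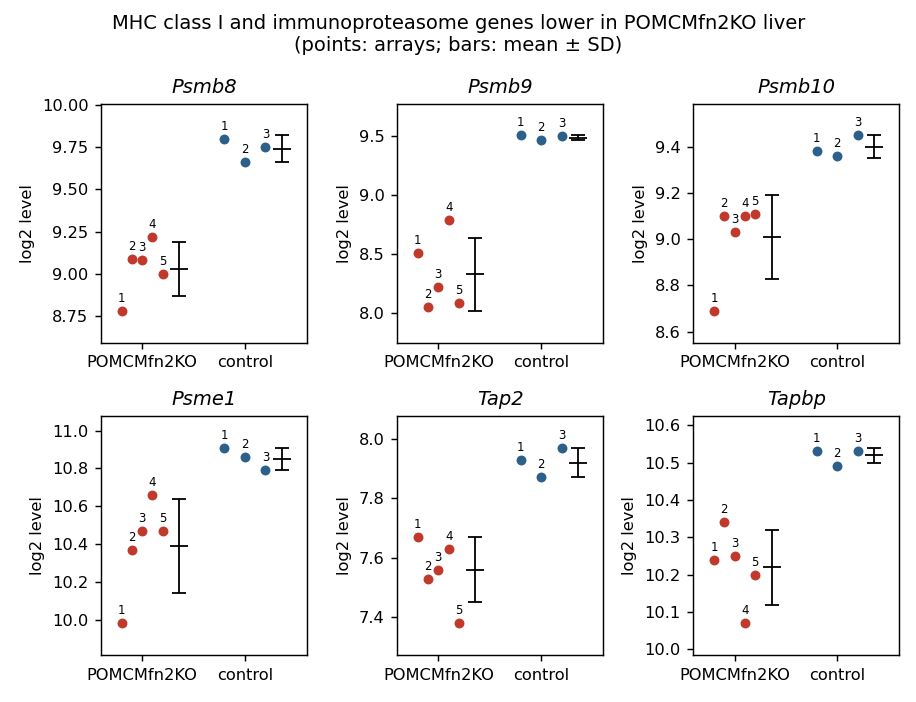
The strip plots give the log2 level (vertical axis, a scale of its own per gene) of the 6 MHC class I and immunoproteasome genes that fell, with a point per array numbered by replicate, POMCMfn2KO left of control, and the mean ± SD beside the points. No POMCMfn2KO point reaches the controls, and Psmb9 shows the widest separation, 8.33 ± 0.31 in POMCMfn2KO and 9.49 ± 0.02 in control livers.

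Markers of other cells differed between the livers as well, and their part in the falls was not tested. Of 3 pan-leukocyte genes, Coro1a (6.45 ± 0.23 in POMCMfn2KO and 7.12 ± 0.11 in control livers, adjusted p = 0.00867) and Laptm5 (8.21 ± 0.22 and 8.65 ± 0.16 in the same order, adjusted p = 0.0469) fell, and their mean with Ptprc ranged from 7.28 to 7.85 in POMCMfn2KO and from 7.85 to 8.13 in control livers. The immunoglobulin gene Ighm fell (7.47 ± 0.25 in POMCMfn2KO and 9.35 ± 0.40 in control livers, adjusted p = 0.000549), while the B cell genes Cd79a, Cd79b and Ms4a1 were dim. The mean of 9 T and NK cell genes, 5 of them dim, ranged from 5.40 to 5.52 in POMCMfn2KO and from 5.46 to 5.56 in control livers. Siglech, the marker of plasmacytoid dendritic cells, was dim. Among monocyte and neutrophil genes, S100a9 fell (5.89 ± 0.12 in POMCMfn2KO and 7.45 ± 0.11 in control livers, adjusted p = 1.27e-05) and the dim S100a8 was at 4.82 ± 0.38 in POMCMfn2KO and 6.28 ± 0.15 in control livers. Ccr2 (6.35 ± 0.21 in POMCMfn2KO and 6.14 ± 0.11 in control livers), Mpo (6.07 ± 0.08 and 6.19 ± 0.11) and Csf3r (6.66 ± 0.05 and 6.73 ± 0.05) did not pass. The mean of the 5 such genes with a probe set ranged from 5.80 to 6.06 in POMCMfn2KO and from 6.5 to 6.59 in control livers. S100a8 and S100a9 had by far the largest differences among them. Stab2, of sinusoidal endothelium, rose (9.57 ± 0.16 in POMCMfn2KO and 9.02 ± 0.17 in control livers, adjusted p = 0.0107). The other listed genes of these cells did not follow it past the threshold: Clec4g (adjusted p = 0.0621), Kdr (adjusted p = 0.311) and Lyve1 (adjusted p = 0.487) did not pass, and Pecam1 was dim.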

How the data were processed

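RNA of 8 livers was measured on GeneChip arrays. Each deposited value is a log2 level of 1 probe set. RMA and affy are the tools named per the submitters' processing notes, with versions not given in the sources used here. They were used as given. The array medians lay between 5.79 and 5.81. Arrays carry no read depth, so their number limits the precision.

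Of 45101 probe sets, 64 were controls, 34945 had 1 gene symbol, 932 several and 9160 none. The brightest probe set per gene was kept, and genes below the median of non-control probe sets (5.80) were left out, leaving 11986 genes. The gene test used limma 3.58.1 (R 4.3.3; no trend, not robust, Benjamini-Hochberg adjustment). The spread test ran limma on absolute deviations from the group mean, scaled for group size. Both were tested on simulated data, where the adjusted spread test had little power. Counts of non-overlapping groups and of lowest arrays without POMCMfn2KO 2 and 3 were added after seeing the data.

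The genes and lists were chosen with earlier results of these data known. Text names every listed interferon-stimulated gene, pathway genes that passed, and Ifnar1, Ifngr1, Jak1 and Tyk2; array values are given for interferon-stimulated genes that passed and for the 8 with the largest SD among knockouts, and any others were chosen after their values were seen. Alternatives changed filter, probe set, scaling, variance model, weights, replicate block and arrays. Figures used matplotlib 3.10.9 in Python 3.11.15.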

Additional observations from a re-analysis of the deposited data

Results flagged for a closer look

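Of 47 genes checked, the 36 interferon-stimulated genes and the 11 pathway genes that fell, 3 had 1 POMCMfn2KO liver far from the other 4, and in each it was POMCMfn2KO 1, at the low end. The gap to the nearest liver made up 0.844 of the whole range in Gbp6, 0.802 in Psmb10 and 0.741 in Gbp2, above the critical value of 0.71 for 5 samples. Chance alone sets an array apart in about 1 of 20 groups.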

How the results depend on the processing

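The interferon-stimulated genes that fell numbered 7 with all arrays, 11 with array weights by genotype, 1 without POMCMfn2KO 2 and 3 together, and 1 to 9 when 1 array was left out. The number that rose was 0, and 0 to 3 when 1 array was left out. The pathway genes that fell numbered 11, 5 without POMCMfn2KO 2 and 3 together, and 4 to 13 when 1 array was left out; of those genes 1, Mavs, rose with the mean of all probe sets, with quantile normalization and with array weights. The number with a larger spread was 0, and 0 to 3 when 1 array was left out. Apart from the gene test without POMCMfn2KO 1, the share over all genes is not given for these alternatives. Sign changes concerned genes without a call. Irf9 was at -0.16 with the replicate block and between -0.11 and 0.07 when 1 array was left out. Trim25 was at -0.06 with the block, -0.01 without POMCMfn2KO 2 and 3, and between -0.05 and 0.10 when 1 was left out. Gbp2 was at -0.07 without POMCMfn2KO 2 and 3, and Ifi35 at 0.01 with the mean of all probe sets. Irf7 ranged from -0.50 to 0.01 and Bst2 from -0.24 to 0.12 when 1 array was left out.

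The replicate number as a block, in which POMCMfn2KO 4 and 5 add nothing to the difference, gave 7 interferon-stimulated genes that fell, 6 of them the same, and 9 pathway genes that fell. Same-numbered arrays deviated with correlations of 0.0426, 0.0369 and -0.0327 across genes, so the numbers were not treated as pairs. The causes of these shifts were not tested. The control group held 3 arrays, and the fits without a control rest on fewer still.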
